A study of Mus musculus with 6 samples.

Results

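The genes described here are 9 known targets of the liver X receptors (LXR) in liver: Srebf1, Abca1, Abcg1, Abcg5, Abcg8, Mylip, Lpcat3, Pltp and Lpl. They were listed from the literature on these receptors, with earlier results of these data known. All 9 were found among 19938 genes measured, each on a single probe set that is annotated to that gene alone. Liver total RNA was hybridised to 6 Affymetrix Mouse Gene arrays, on which several short probes read each transcript. All mice were male C57BL/6, an inbred strain with no engineered allele named in the labels, obtained at 6 weeks of age and kept on chow for 1 week before the diets began. The cholesterol group (CH, 3 arrays) ate chow with 1% cholesterol by weight. The other group (LE, 3 arrays) ate chow with lovastatin, which blocks an early enzyme of cholesterol synthesis, at 100 mg per 100 g and ezetimibe, which blocks sterol uptake from the intestine, at 21 mg per 100 g. The labels do not give the time on the diets and tie no array to a single animal, so the tests rest on the spread among 3 arrays a diet, part of which may be technical. A chow group is also described but is not analysed here, and no value below tells a rise on one diet from a fall on the other.

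LXR alpha and LXR beta are nuclear receptors that bind oxysterols, oxidised forms of cholesterol, and pair with the retinoid X receptor on DNA. When a cell holds much sterol they turn on genes that export sterol, remodel phospholipids and lipoproteins, and make fatty acids. Srebf1 is the link to fatty acids: it encodes SREBP-1, a transcription factor that drives lipogenesis, and the liver form SREBP-1c is itself under LXR control. Its relative SREBP-2, encoded by Srebf2, is released from the membrane when sterol is scarce. SREBP-1 is also made as a membrane protein and released by the same machinery. The RNA of Srebf1 therefore need not follow active SREBP-1, which was not measured here. The CH and LE diets therefore set sterol supply against sterol limitation for a group of genes usually described as sterol-induced.

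The promoters of Srebf1 and Abca1 are shown first. Both genes fell and carry the same short receptor element, while their changes differed widely in size. RefSeq (GRCm38.p6) windows of 250 bases before to 50 bases after a transcription start were on hand for 7 of the 9 genes, in 10 windows. Abcg1 and Lpl, which also fell, had no window, so the search did not cover them. The core of the LXR elements known from these promoters, GGTTACT followed after any 2 bases by CGG, was searched on both strands. It occurred at 2 places before the most downstream of the 3 Srebf1 starts and once before Abca1. Among all 32851 promoter windows 9 held it (0.0274%), and these belonged to 9 genes, of which the lipogenic gene Fasn was another. The core was written from knowledge of Srebf1 and Abca1, so their matches are a description. Each sequence reads 5′ to 3′ along the gene, with the core in capitals. In all of them it lies on the opposite strand and so appears as its reverse complement.
Srebf1, chr11:60210422-60210721, minus strand: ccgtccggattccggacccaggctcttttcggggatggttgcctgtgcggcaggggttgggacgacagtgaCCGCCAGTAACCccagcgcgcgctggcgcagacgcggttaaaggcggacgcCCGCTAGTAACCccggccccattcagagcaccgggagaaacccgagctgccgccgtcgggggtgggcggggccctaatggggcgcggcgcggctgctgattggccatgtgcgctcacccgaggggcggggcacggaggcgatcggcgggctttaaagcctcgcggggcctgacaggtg
Abca1, chr4:53159846-53160145, minus strand: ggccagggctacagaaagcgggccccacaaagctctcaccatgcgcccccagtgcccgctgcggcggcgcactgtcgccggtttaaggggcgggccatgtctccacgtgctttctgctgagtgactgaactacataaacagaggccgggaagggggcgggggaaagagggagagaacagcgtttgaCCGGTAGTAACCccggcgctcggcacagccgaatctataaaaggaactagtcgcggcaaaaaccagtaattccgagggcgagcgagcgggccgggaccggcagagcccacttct
Fasn, chr11:120824498-120824797, minus strand: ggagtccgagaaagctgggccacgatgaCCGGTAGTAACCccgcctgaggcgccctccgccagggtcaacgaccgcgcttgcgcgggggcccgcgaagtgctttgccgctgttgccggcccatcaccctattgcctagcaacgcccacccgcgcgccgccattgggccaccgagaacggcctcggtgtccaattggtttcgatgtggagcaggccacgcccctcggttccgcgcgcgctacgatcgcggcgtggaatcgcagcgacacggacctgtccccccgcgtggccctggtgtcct
The matches begin 179 and 128 bases before that Srebf1 start, 64 bases before the Abca1 start and 222 bases before the Fasn start. Read on their own strand they are GGTTACTGGCGG and GGTTACTAGCGG in Srebf1 and GGTTACTACCGG in both Abca1 and Fasn. Among 49 pairs of these windows from different genes, Fasn included and Abcg5 with Abcg8 left out, the longest run of letters in common was that of Abca1 and Fasn. It has 18 bases, TGACCGGTAGTAACCCCG, and occurs in 2 of the 32851 windows. This run includes the core match, whose letters are the same in both genes, so its length follows in part from the search for the core. Abca1 and Srebf1 share 13 bases, TAGTAACCCCGGC, found in 3 windows, and the median over the pairs is 9 bases. That length is not unique to genes with the core. Mylip, whose window lacks it, also shares 13 bases with another Srebf1 window, in a run found in 50 windows. Of the 9 genes with the core 8 were measured. Srebf1 and Abca1 fell, Fasn rose, and the other 5 did not pass the test, with log2 changes of -0.12 to 0.14. A consensus DR4 element, in which a pair of receptor half-sites is spaced by 4 bases, is found in 0.0822% of all windows, and the sterol regulatory element letters TCACNCCAC are found in 1.24%. Both were absent, as spelled, from the 10 windows of these targets, which says nothing of sites outside the windows. The DR4 search allowed only a few consensus spellings. The elements of Srebf1 and Abca1 that hold the core can themselves be read as a DR4 with looser letters. Such elements were not counted, so the search does not show that these windows lack a DR4.

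Of the 9 targets, 2 were higher and 4 lower in the LE livers by limma with p-values adjusted over all genes (Benjamini-Hochberg, threshold 0.05), and 3 did not pass. Over all 19938 genes the same rule called 12.1%, with 7.01% higher and 5.08% lower. The median log2 change of the 9 was -0.14, beside -0.01 for all genes. The falls were those of Srebf1 and Lpl, both more than 2-fold, and of Abca1 and Abcg1, both about 1.2-fold. Pltp and Lpcat3 rose. The 3 arrays of one diet lay wholly above or below the 3 of the other for 7 of the 9 targets, beside 30.6% of all genes. In 2 of these the LE arrays were the higher, beside 15.9% of all genes, and in 5 the lower, beside 14.7%. Changes are given as LE minus CH on the log2(intensity + 1) scale, with the standard error (SE) and 3 arrays per group.

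**Figure D1:**
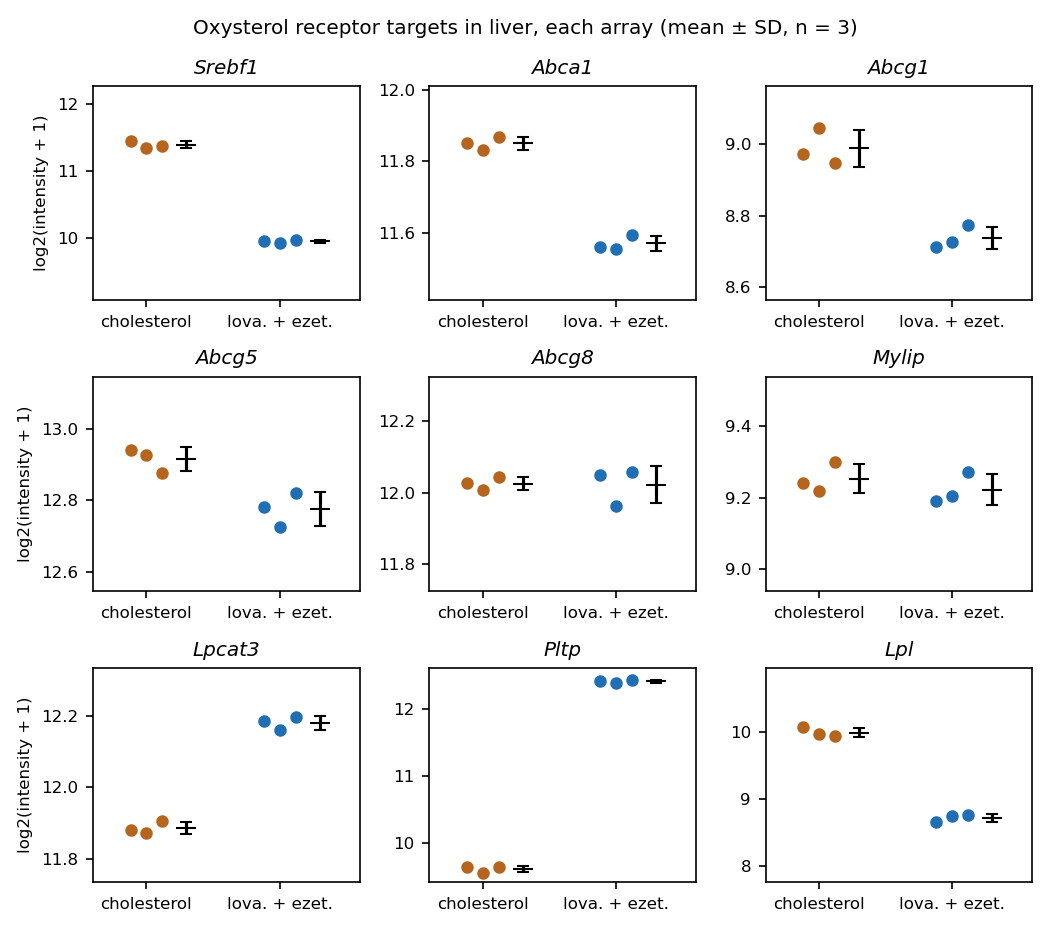
Values of the 9 targets on each array, as log2(intensity + 1) on the vertical axis, with CH arrays in brown and LE arrays in blue and the mean ± SD of 3 arrays in black. Axis ranges differ between panels; the diets are apart for all genes except Abcg8 and Mylip.

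Srebf1 read 2780.7, 2595.8 and 2644.2 on the CH arrays and 990.3, 967.3 and 995 on the LE arrays. Every LE value was far below every CH value, and the LE arrays lay close together. Srebf1 was 2.71-fold lower (log2 -1.44, SE 0.05, 95% interval -1.56 to -1.32; limma adjusted p = 1.35e-06), the 10th lowest change of the 19938 genes. SREBP-1a and SREBP-1c come from different starts of this gene, and the single probe set gives no separate value for each.

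Its relative Srebf2 moved in the opposite direction. Srebf2 read 651.5, 648.4 and 650.4 with cholesterol and 2197.5, 2118.4 and 2335 with lovastatin and ezetimibe, a rise of 3.40-fold (log2 1.77, SE 0.05; limma adjusted p = 5.3e-07). The ratio of Srebf1 to Srebf2 within an array was 9.24-fold lower with LE (log2 -3.21), and the 6 arrays did not overlap. Of 5 such pairs compared by an exact two-sided permutation test, 4 had p = 0.1, the smallest that 3 arrays against 3 can give, and 0.125 after Benjamini-Hochberg adjustment over the 5 pairs. The test cannot pass the threshold in this design.

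The RNA of lipogenic genes that SREBP-1 is known to drive did not follow that of Srebf1. Of 16 measured, 14 rose, 0 fell and 2 did not pass, with a median log2 change of 1.09. Acss2, which makes acetyl-CoA from acetate, rose by 2.38 (SE 0.05) and Acly, which makes it from citrate, by 2.30 (SE 0.05). Lpin1, a phosphatidate phosphatase, rose by 1.76 (SE 0.05) and the fatty acid synthase Fasn by 1.75 (SE 0.05). Fasn read 3521.4, 3560.5 and 3620.8 on the CH arrays and 12094.2, 11804.3 and 12209.6 on the LE arrays, so that every LE value was over 3 times every CH value. The ratio of Srebf1 to Fasn was 9.15-fold lower with LE (log2 -3.19). Its change against the CH mean was -3.19, -3.19 and -3.20 on the 3 LE arrays (SD 0.004, against 0.07 on the CH arrays). Each SD rests on 3 arrays, and the difference in spread was not tested. The desaturase gene Scd1, named after its values were seen, is known to answer to both LXR and SREBP-1 and did not pass (0.00, SE 0.05, 95% interval -0.11 to 0.11). Its mean was among the 19 highest of all probe sets, where the highest value of an array was 31302 to 32889; whether so bright a probe set still follows its RNA was not tested.

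**Figure D2:**
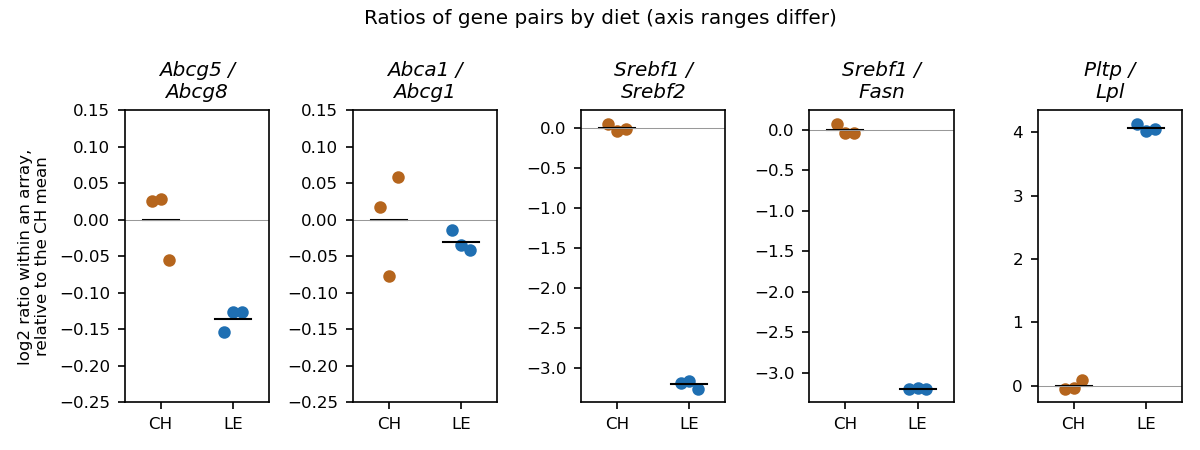
Ratio of the paired genes within each array, as log2 relative to the mean of the CH arrays on the vertical axis, for CH (brown) and LE (blue) arrays with group means as black bars. The diets are apart for 4 of the 5 pairs and overlap for Abca1 and Abcg1; axis ranges differ.

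In the list of SREBP processing, which also holds Srebf2 itself, 3 of 6 genes rose and 0 fell. The count that fell was 0 with any 1 array left out and 0 to 2 in the other settings. Scap, which carries SREBPs out of the endoplasmic reticulum, rose 2.13-fold (log2 1.09, SE 0.05), and Insig1, which holds them back, 3.47-fold (1.79, SE 0.05). The third was Srebf2. All 5 measured sterol genes of the SREBP-2 list rose, with a median of 3.29. They were Sqle (5.50), Idi1 (3.76) and Hmgcs1 (3.29), all enzymes of cholesterol synthesis, the sterol carrier gene Stard4 (2.11) and Insig1.

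Srebf1 also answers to insulin and carbohydrate. In that list of 9 measured genes 2 rose, 2 fell and 5 did not pass. Those that did not pass were Pck1 (log2 -0.001), G6pc (-0.132), Insr (-0.041), Irs1 (0.15) and Irs2 (0.081). Igfbp1, an insulin-repressed binding protein of insulin-like growth factors, rose 3.02-fold (log2 1.59, SE 0.05). Mlxipl, which encodes the carbohydrate-sensing factor ChREBP, fell by 0.61 (SE 0.05), and the fructose kinase gene Khk fell by 0.48 (SE 0.06). The pyruvate kinase gene Pklr rose by 0.22 (SE 0.06, limma adjusted p = 0.037), a call lost when any of the 6 arrays was left out (adjusted p 0.0529 to 0.118), which brought the count that rose to 1.

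The 5 genes whose profile over the 6 arrays, centred on each gene's own mean, was nearest to that of Srebf1 were Fabp2, Slc13a2, Spry4, Ces1b and Car14. Their root mean square differences from it were 0.06, 0.07, 0.07, 0.08 and 0.09 on the log2 scale. Fabp2 encodes a fatty acid binding protein, Slc13a2 a dicarboxylate transporter, Spry4 an inhibitor of growth factor signalling, Ces1b a carboxylesterase and Car14 a carbonic anhydrase. With arrays of 2 diets this likeness chiefly reflects the size of the change. Ces1b has near-identical copies whose transcripts can bind the same probes.

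Abca1 loads cholesterol and phospholipid onto apolipoprotein A-I and so starts the formation of high-density lipoprotein. It read 3697.4, 3641.7 and 3737.8 on the CH arrays and 3021.3, 3008 and 3092.6 on the LE arrays. The groups were apart but close, with a fall of 17.6% (log2 -0.28, SE 0.05, 95% interval -0.39 to -0.17; limma adjusted p = 0.00661).

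Abcg1 passes cholesterol on to particles that already hold lipid. Its values were 501.5, 527.6 and 492.9 with cholesterol and 418.9, 422.9 and 436.8 with lovastatin and ezetimibe. Here too every LE array was lower than every CH array, and Abcg1 fell by 0.25 (SE 0.05; limma adjusted p = 0.017). This call was lost without CH1 (adjusted p = 0.0602), CH2 (0.06), LE1 (0.0574) or LE2 (0.0637), and the range over all alternatives was 5.85e-04 to 0.0637. The ratio of Abca1 to Abcg1 changed by -0.03 on the log2 scale (exact permutation p = 0.6, 0.6 after adjustment over the 5 pairs), and its LE values lay within the range of the CH values.

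Abcg5 and Abcg8 encode proteins that join into a single exporter, which sends sterol from hepatocytes into bile. The genes lie head to head on chromosome 17, and RefSeq gives Abcg8 2 starts. The window of one of them shares 209 bases with that of Abcg5, and the window of the other, chr17:84676052-84676351, shares none. The shared stretch is shown because both genes can be read from it. It is given along the plus strand, the strand of Abcg8, with the 109 bases between the starts in capitals.
Abcg5 and Abcg8, chr17:84682962-84683170, plus strand: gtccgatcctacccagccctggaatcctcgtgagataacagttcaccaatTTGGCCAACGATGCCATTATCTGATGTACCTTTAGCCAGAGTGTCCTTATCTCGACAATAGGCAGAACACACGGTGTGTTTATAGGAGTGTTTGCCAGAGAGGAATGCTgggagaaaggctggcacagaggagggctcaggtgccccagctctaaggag
Abcg5 read 7857.6, 7776.6 and 7516 on the CH arrays and 7041.8, 6765.2 and 7228.8 on the LE arrays, and Abcg8 read 4170.8, 4119.1 and 4221.2 against 4236.4, 3990.3 and 4264.3. The diets were apart for Abcg5 and overlapped for Abcg8. Abcg5 did not pass the test (log2 -0.14, SE 0.05, 95% interval -0.26 to -0.02; limma adjusted p = 0.136), and neither did Abcg8 (0.00, SE 0.05, 95% interval -0.12 to 0.11; adjusted p = 0.983). The ratio of Abcg5 to Abcg8 was lower on all 3 LE arrays than on any CH array (log2 -0.14; exact permutation p = 0.1, adjusted 0.125). Abcg5 passed with quantile normalisation (adjusted p = 0.0276), with a limma prior that follows intensity (0.00375) and with a cyberT-like regularised test, which borrows spread from genes of like intensity (0.00203), in a range of 0.00203 to 0.337 over all alternatives.

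Of 14 other ABCA, ABCG and canalicular ABCB transporters, 4 rose, 2 fell and 8 did not pass. The phospholipid exporter gene Abcb4 rose by 0.56 (SE 0.05) and Abca8a fell by 0.77 (SE 0.05). Abcb1a, a drug exporter gene, rose by 0.51 (SE 0.10), but not without LE3 (limma adjusted p = 0.0655), and Abca9 rose by 0.37 (SE 0.07), but not without CH2 (0.0546), LE2 (0.0608) or LE3 (0.0676). The count that rose was 2 without CH2 or LE2 and 1 without LE3, and the count that fell was 1 without any 1 of the 6 arrays.

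Pltp encodes the phospholipid transfer protein, which moves phospholipid between lipoproteins and enlarges high-density lipoprotein. It rose the most of the 9 targets. The CH arrays read 794, 750.5 and 799.4 and the LE arrays 5449.2, 5378.4 and 5521.9. No other target had its groups so far apart: Pltp was 6.97-fold higher (log2 2.80, SE 0.05, 95% interval 2.69 to 2.92; limma adjusted p = 4.89e-08), the 22nd highest change of the 19938 genes.

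The genes nearest to Pltp in profile were Dhcr7, Aacs, Aldoc, Fdps and Mtmr11, at root mean square differences of 0.05, 0.07, 0.07, 0.08 and 0.09. Dhcr7 and Fdps are enzymes of cholesterol synthesis, at log2 2.88 (SE 0.05) and 2.86 (SE 0.08). Aacs makes acetoacetyl-CoA for lipid synthesis, Aldoc is a glycolytic aldolase and Mtmr11 belongs to the myotubularin family. As for Srebf1, nearness over arrays of 2 diets chiefly reflects size.

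Of 9 measured genes of high-density lipoprotein remodelling and the Pltp family, 1 rose, 0 fell and 8 did not pass (median 0.02). It was Lipg, the endothelial lipase, which acts on the phospholipid of high-density lipoprotein. Lipg read 209.4, 221.8 and 214.3 with cholesterol and 493.2, 580.2 and 563 with lovastatin and ezetimibe, a rise of 2.52-fold (log2 1.33, SE 0.07; limma adjusted p = 1.51e-05). Apoe, an apolipoprotein and known LXR target, did not pass (-0.03, SE 0.05); its mean was among the 12 highest of all probe sets, and whether it still follows its RNA there was not tested.

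Lpcat3 places polyunsaturated fatty acids into phospholipids. It read 3771.6, 3748.2 and 3834.3 on the CH arrays and 4658.6, 4572.8 and 4694.2 on the LE arrays. The groups were apart and the LE arrays were the higher ones, with a rise of 22.6% (log2 0.29, SE 0.05, 95% interval 0.19 to 0.40; limma adjusted p = 0.00494). None of the 8 other lysophospholipid acyltransferases measured passed limma's test. Of them 2 had an unadjusted p below 0.05, and 0 passed with the cyberT-like test; the one with the smallest p, Lpcat2, was at 0.20 (SE 0.08, adjusted p = 0.181).

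Lpl is the lipase that frees fatty acids from circulating triglyceride; adult liver makes little of it, and sterol feeding is known to raise it there. It read 1068.4, 993.3 and 973.8 on the CH arrays and 399.4, 427.2 and 429.6 on the LE arrays. The LE arrays were all far below the CH arrays, and Lpl was 2.41-fold lower (log2 -1.27, SE 0.06, 95% interval -1.41 to -1.13; limma adjusted p = 7.34e-06), the 14th lowest change of all genes. The ratio of Pltp to Lpl was 16.8-fold higher with LE (log2 4.07).

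Of 10 measured partners of Lpl and related lipases, 2 rose and 3 fell. Besides Lipg, the lipase activator gene Apoa5 rose by 0.25 (SE 0.05). Angptl8, an insulin-induced regulator of Lpl, was 1.98-fold lower (log2 -0.99, SE 0.06; limma adjusted p = 2.52e-05). The Lpl inhibitor gene Angptl4 fell by 0.19 (SE 0.05) and Lmf1, a maturation factor of Lpl named after its value was seen, by 0.18 (SE 0.05). The Apoa5 call was lost without any array but LE2 (adjusted p 0.0505 to 0.0727), and those of Angptl4 (0.061 to 0.121) and Lmf1 (0.056 to 0.147) without any 1 array, so that 1 gene, Angptl8, was lower in each of these fits.

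Mylip encodes IDOL, a ubiquitin ligase that marks lipoprotein receptors for breakdown. Its values were 604.9, 595.1 and 629.7 with cholesterol and 583.5, 589.1 and 617.6 with lovastatin and ezetimibe. The arrays of the diets overlapped, and Mylip did not pass the test (log2 -0.03, SE 0.05, 95% interval -0.15 to 0.09; limma adjusted p = 0.776). Among 6 measured genes that act with IDOL or are its substrates, 0 passed by limma, 0 had an unadjusted p below 0.05 and 0 passed with the cyberT-like test. The one with the smallest p, Usp2, which encodes a deubiquitinase, was at 0.09 (SE 0.05).

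**Figure D3:**
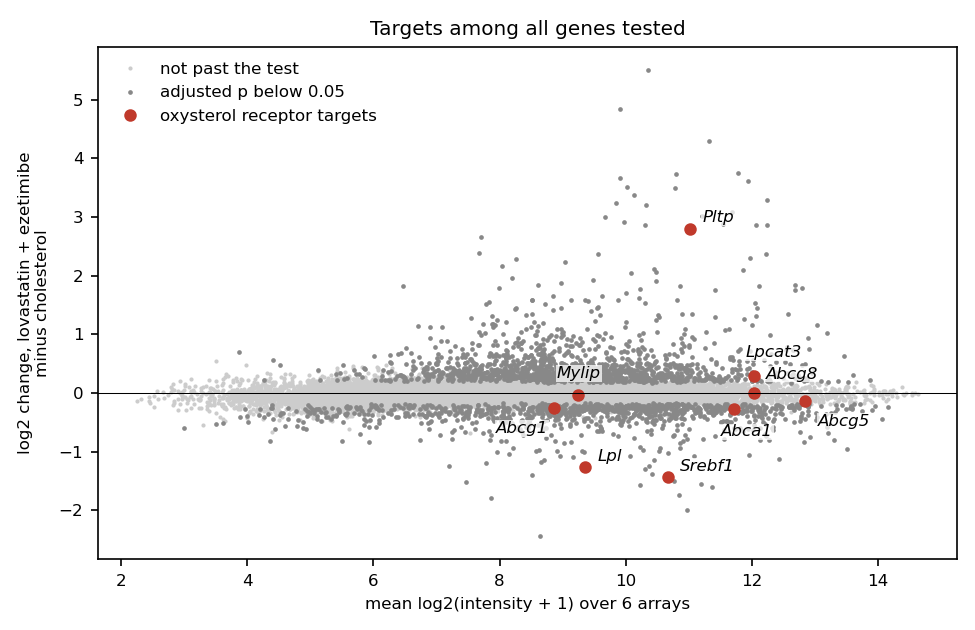
Log2 change (LE minus CH) of each of 19938 genes on the vertical axis against its mean log2(intensity + 1) over the 6 arrays; dark grey points passed limma's test and red points are the 9 targets. Pltp is the 22nd highest of all changes, and Srebf1 and Lpl are the 10th and 14th lowest.

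The receptors themselves did not pass the test. LXR alpha, encoded by Nr1h3, read 1735.4, 1663 and 1731.1 on the CH arrays and 1723.4, 1726.5 and 1776.3 on the LE arrays, which overlap (log2 0.03, SE 0.05, 95% interval -0.08 to 0.14). The main partner receptor gene Rxra was at -0.02 (SE 0.05, 95% interval -0.13 to 0.08). Of 9 receptor and coregulator genes measured, 0 passed limma's test, 2 had an unadjusted p below 0.05 and 2 were higher with the cyberT-like test. The smallest p belonged to Gps2, a corepressor subunit, at 0.21 (SE 0.07, limma adjusted p = 0.113). LXR beta is not analysed here.

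Of 9 measured enzymes that make or clear oxysterols and other sterol ligands, 1 rose and 1 fell. Cyp39a1, an oxysterol hydroxylase of bile acid synthesis, rose 2.37-fold (log2 1.24, SE 0.06; limma adjusted p = 6.93e-06), reading 958.4, 887.1 and 928.3 with cholesterol and 2139, 2130.9 and 2302.8 with lovastatin and ezetimibe. Cyp7b1, another oxysterol hydroxylase, was 1.58-fold lower (log2 -0.66, SE 0.05; limma adjusted p = 7.55e-05), at 8865.3, 8677 and 8743.3 against 5648.6, 5532.2 and 5460.5. Neither gene's groups overlapped.

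Other known LXR targets also went both ways. Of 13 measured, 2 rose, 3 fell and 8 did not pass, with a median of 0.00. Fasn and Acaca (log2 1.04, SE 0.05), the acetyl-CoA carboxylase gene, rose, and both were also counted in the lipogenic list. Of the genes that fell, Mlxipl was also counted in the insulin and carbohydrate list. Mlxipl, the apolipoprotein gene Apoc1 (-0.30, SE 0.05) and Cyp7a1, which starts the main route from cholesterol to bile acids (-0.23, SE 0.05, limma adjusted p = 0.0227), fell. Leaving out CH1, CH2, CH3, LE1 or LE2 ended the Cyp7a1 call (adjusted p 0.0607 to 0.0952).

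**Figure D4:**
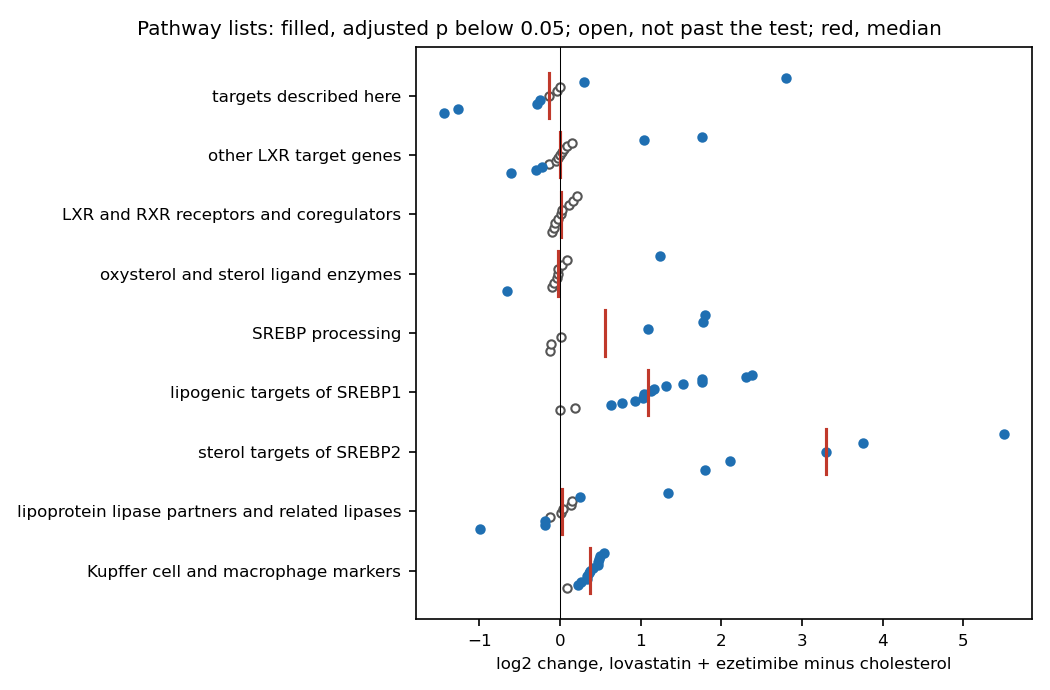
Log2 change (LE minus CH) on the horizontal axis for each measured gene of 9 lists; filled points passed limma's test, open points did not, and red bars are list medians. The 9 targets range from -1.44 to 2.80 around a median of -0.14, while the lipogenic list has its median at 1.09.

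Macrophages also express Abca1, Abcg1, Lpl and Pltp, and bulk RNA cannot tell a change in cell number from a change per cell. Of 13 markers of Kupffer cells and macrophages, 12 rose and 0 fell (median log2 0.37). The 1 that did not pass, Cd5l (0.09, SE 0.05), was also counted among the other LXR targets. The summed intensity of the 13 markers was 11030 to 11732 on the CH arrays and 14498 to 14874 on the LE arrays. Abca1, Abcg1 and Lpl thus fell where these markers rose, and Pltp and Lpcat3 rose with them; their part in these changes was not tested. Of 7 hepatocyte markers 0 passed limma's test, with 1 at an unadjusted p below 0.05 and 3 past the cyberT-like test (2 higher, 1 lower). Their summed intensity was 112287 to 113213 with cholesterol and 110975 to 113609 with LE. Of these markers Alb (mean log2 14.53 on the CH arrays) was brighter than Scd1 (14.43). Whether so bright a probe set still follows its RNA was not tested. Adipocyte and skeletal muscle, both rich in Lpl, had 0 of 6 and 0 of 5 markers past limma's test, 2 and 0 at an unadjusted p below 0.05, and 0 and 0 with the cyberT-like test. Adipocyte markers summed to 809 to 838 with cholesterol and 806 to 843 with LE, and muscle markers to 674 to 708 and 678 to 729. Endothelial (8 measured), cholangiocyte (5) and pancreatic (3) markers had 0 past limma's test, with 3, 1 and 0 at an unadjusted p below 0.05 and 3, 1 and 0 with the cyberT-like test. Of 8 stellate cell markers 1 fell, Col3a1 (-0.19, SE 0.05, limma adjusted p = 0.0389), a call lost when any 1 array was left out (0.0669 to 0.147). No probe set was listed at 0.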

How the data were processed

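The authors deposited one table of probe set intensities, on a linear scale to judge by its values. How they corrected background, normalised and summarised probes is not stated here. Per the labels' protocols Trizol was used for RNA extraction, and Partek and cyberT are named for the authors' own tests, without settings. Array medians lay between 158.1 and 162.9.

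Of 35556 probe sets, 21789 carry 1 gene symbol, 1621 several and 12146 none in the platform annotation. Single-gene probe sets were used, and for each of 999 genes with several, the one with the highest mean over the 6 arrays. Values were taken as log2(intensity + 1), which understates the change of dim genes, and compared with limma 3.58.1 (lmFit, eBayes) in R 4.3.3, two-sided, over 19938 genes. The fits were tested on simulated data. Same-numbered arrays of the diets did not deviate together (correlations of -0.10 to 0.16), so numbers were not treated as pairs. Between arrays of different number the correlations were -0.23 to 0.25. The 9 genes, 12 pathway lists and 8 marker lists were chosen with earlier results of these data known. Named genes are the targets, their pair partners, a few receptor and sterol genes, the 5 nearest profiles to Srebf1 and Pltp, and from each list the 4 largest changes that passed, or the smallest p. Some further genes of the lists were named after their values were seen. Sequences come from RefSeq; no promoter for Abcg1 or Lpl was used here. Plots used Python 3.11.15 and matplotlib 3.10.9.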

Additional observations from a re-analysis of the deposited data

How the results depend on the processing

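In 15 alternatives Srebf1, Abca1 and Lpl stayed lower and Pltp and Lpcat3 higher past the threshold; the highest adjusted p were 1.87e-04, 0.0352, 7.28e-04, 2.87e-05 and 0.0292. The number of targets called higher was 2 in each of them, and the number called lower 3 to 5, moved by Abcg1 and Abcg5. Abcg8, uncalled throughout, changed sign with quantile normalisation (0.004), without CH3 (0.006) and without LE2 (0.027), in a range of -0.02 to 0.027 with an array left out. So did Nr1h3 with quantile normalisation (-0.008) and Scd1 with median centring (-0.025) and without CH1 (-0.007), CH2 (-0.006), LE2 (-0.011) or LE3 (-0.003), against 0.019 without LE1. The number used as a block, though it pairs no arrays, ended the calls of Abcg1 (adjusted p = 0.0551), Abca9 (0.055), Abcb1a (0.0595), Apoa5 (0.065), Cyp7a1 (0.0682), Col3a1 (0.0805), Pklr (0.0825), Angptl4 (0.0862) and Lmf1 (0.0976), and called Cftr lower (0.0257); with the replicate block 1031 genes were higher and 657 lower, against 1398 and 1012.

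Genes called lower over the whole array numbered 1540 with quantile normalisation, 1560 with the intensity trend, 1664 with the cyberT-like test and 525 to 893 with an array left out. The share of calls that were higher, 58%, was 48.9% with quantile normalisation and 48.4% with median centring. Lower genes of the pathway lists together, 10 of 104, numbered 6 with the replicate block, 16 with the trend, 16 with the cyberT-like test and 6 to 7 with an array left out. The causes of these shifts were not tested. The changes of the 5 pair ratios moved by less than the pooled SD between arrays in each setting run, except that of Abcg5 to Abcg8 with quantile normalisation (-0.181). A further planned pair was not run. The number of arrays limits the precision, and signal over background is not known for these values.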
